A study of Mus musculus with 4 samples.

Results

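The Notch pathway was described here through 10 genes in RNA sequencing of mouse uterine cells, and they were chosen by name: the receptors Notch1, Notch2, Notch3 and Notch4, the ligands Dll1, Dll4, Jag1 and Jag2, and the target genes Hes1 and Hey1. Each symbol matched 1 row, so 10 of the 21993 genes in the tables were members. The labels give cells sorted from the uterus at gd11.5 of pregnancy as CD3-, CD45+ and NK1.1+, that is, as uterine NK cells, from females mated with B6 males. There were 2 libraries of Ncr1Cre mice, in which Cre recombinase is driven from Ncr1, the gene of the NK receptor NKp46, and 2 libraries of control mice, which share the rest of the genotype but carry no Cre. Both groups carry a loxP-flanked allele, a target of Cre, which is not named here. The comparison asks which genes differ between these genotypes. Effects of Cre itself and of a change at that allele cannot be told apart. Separate mice are not stated in the labels for the libraries of 1 genotype, so a p-value reflects only how far these libraries lie apart, and that spread may be technical.

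Notch receptors are single-pass membrane proteins that are activated by ligands on a neighbouring cell. Ligand binding exposes the receptor to an ADAM protease and then to gamma-secretase, and the released intracellular domain enters the nucleus and joins the DNA-binding protein RBPJ and a Mastermind coactivator to switch on genes of the HES and HEY families of transcriptional repressors. In the pregnant uterus the pathway is known for roles in vessel growth and in the differentiation of decidual stroma, and in lymphoid organs it directs early choices of T cells and innate lymphocytes.

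Levels are given in FPKM (sequenced fragments divided by transcript length and by library size), so genes can be compared within a library, while differences between libraries depend on scaling. Their total over all genes was 460108 and 468192 in Ncr1Cre, against 384852 and 396770 in control. The number of fragments, roughly estimated from steps in the low values, was 22680000 to 26030000 in the Ncr1Cre libraries and 20960000 to 38540000 in the control libraries, and 1 fragment on 1 kb of transcript was then worth 0.0259 to 0.0477 FPKM. The defining markers of the labelled cells were low, which goes against the label of sorted NK cells. Ncr1 had 0 and 0.152 FPKM in Ncr1Cre, against 0.136 and 0.359 FPKM in control, and Klrb1c, which encodes NK1.1, stood at 0.924 and 0.673 FPKM against 0.449 and 0.973 FPKM. Markers of fibroblasts, which lie outside the sort gate, summed to 11400 and 11600 FPKM in Ncr1Cre, against 24400 and 25100 FPKM in control. Whether these libraries hold the labelled cells, and which cells gave the RNA of a Notch gene, was not tested, and in bulk samples fewer cells of a type and less RNA per cell cannot be told apart.

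In the Ncr1Cre libraries the ligand gene Jag1 and the receptor gene Notch3 were higher and the receptor genes Notch2 and Notch4 were lower than in the control libraries, while Hes1, by far the most abundant member, averaged 91.8 FPKM in Ncr1Cre and 94.6 FPKM in control. Of the 10 members, 8 reached a mean of 1 FPKM over the 4 libraries and were tested, and 4 of these passed (limma, adjusted p under 0.05), with 2 higher and 2 lower. Notch3, Dll4 and Hey1 passed the filter only through their Ncr1Cre values and Notch4 only through its control values, and Notch3 kept its call in 5 of 10 alternatives. Over all 11762 genes tested, 48.5% passed, 30.9% higher and 17.6% lower in Ncr1Cre, and the members' share lay close to this background. The median log2 fold change over all genes tested was 0.11, but no single shift applies to every change. The log2 fold change of Notch2, for instance, was -0.71, and it was -0.87 at equal medians and -0.99 at an equal sum. The split of all calls into 3638 higher and 2071 lower depended on scaling, with 2307 and 3287 when each library was rescaled to an equal sum, 2632 and 3069 when medians were made equal, and 2615 and 3032 with quantile normalization. The genotypes did not overlap for 8 of the 10 members, with 5 higher and 3 lower in Ncr1Cre, and among all genes tested 76.2% did not overlap, with 46.4% higher and 29.9% lower. Fold changes on the log2 scale are of FPKM + 1, which understates those of low genes.

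**Figure D1:**
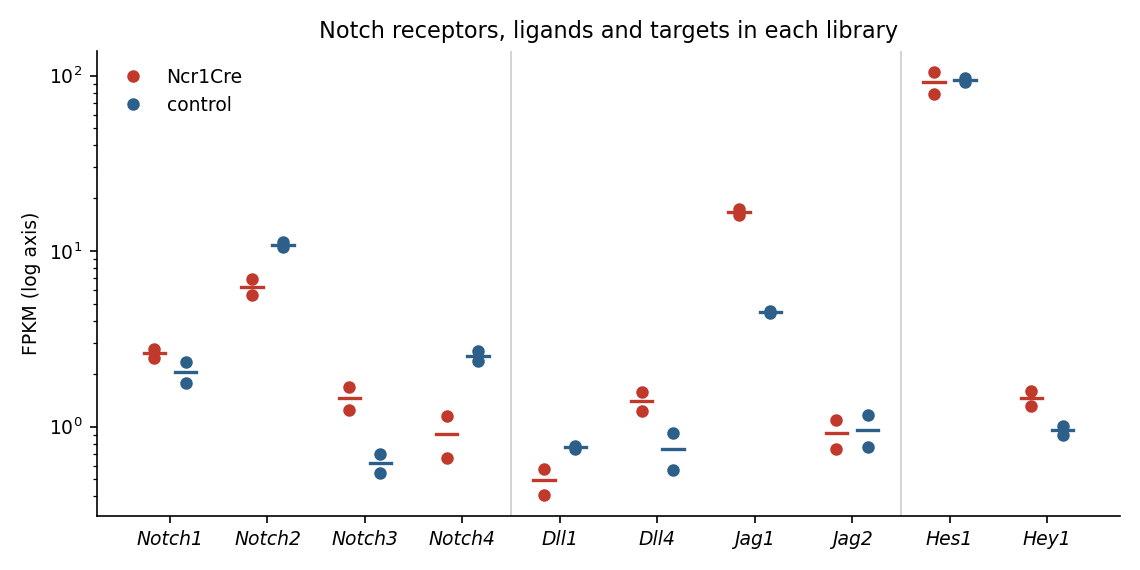
FPKM of the 10 members on a log axis, with 1 point per library and a bar at the mean of the 2 libraries of each genotype, Ncr1Cre in red and control in blue. Jag1 stood at 17.4 and 16 FPKM in Ncr1Cre, above both control libraries at 4.58 and 4.41 FPKM, while the points of Jag2 and Hes1 overlapped.

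The members spanned a wide range of levels. In the Ncr1Cre libraries Hes1 came first at 91.8 ± 18.2 FPKM (SD, n = 2 here and below), followed by Jag1, Notch2 and Notch1, each apart from its neighbours. Notch3, Hey1 and Dll4 followed at 1.46 ± 0.32, 1.46 ± 0.20 and 1.39 ± 0.25 FPKM, with ranges that overlapped from each to the next, then Jag2 and Notch4, which overlapped as well, and Dll1 came last at 0.493 ± 0.117 FPKM. In the control libraries the order was Hes1, Notch2, Jag1, Notch4 and Notch1, each apart from the next, and then Jag2, Hey1, Dll1, Dll4 and Notch3 between 0.961 and 0.623 FPKM, where Jag2 overlapped with Hey1, Dll1 with Dll4 and Dll4 with Notch3. Jag1 and Notch2 thus stood in opposite order in the 2 genotypes. The ratio of Jag1 to Notch2 within a library, which scaling cannot change, was 2.52 and 2.83 in Ncr1Cre and 0.438 and 0.392 in control.

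Among the ligands, Jag1 was the most abundant in every library and the only one of those tested that passed. Jag1 encodes Jagged1, a membrane ligand with a cysteine-rich region beside its EGF repeats, and it had 17.4 and 16 FPKM in the Ncr1Cre libraries, against 4.58 and 4.41 FPKM in the control libraries. Both Ncr1Cre libraries lay far above both control libraries, and the spread within a genotype was small. The means differed 3.71-fold, with a log2 fold change of 1.69 (SE 0.09, 95% interval 1.46 to 1.92, limma adjusted p = 0.000294). By level Jag1 stood at the 85.6 and 84.8 percentile of all genes in Ncr1Cre, against the 65.8 and 65.4 percentile in control. It passed in all 11 alternatives, with log2 fold changes between 1.52 and 1.87 and a highest adjusted p of 0.0102. It was also the only member of those tested whose genotypes lay at least 1 apart on the log2 scale without overlap, as 9.81% of all genes tested did in this direction, but this count of members was 3 with a pseudocount of 0.1, 2 under each of the 3 rescalings and 2 without replicate 1 of Ncr1Cre.

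Epithelial marker genes moved in the same direction as Jag1. All 9 tested rose, and their summed level was 2050 FPKM in both Ncr1Cre libraries and 519 and 494 FPKM in the control libraries. The 7 macrophage markers summed to 84.5 and 82.2 FPKM in Ncr1Cre and to 20.4 and 20.5 FPKM in control, with 6 of 6 tested higher, and the 7 trophoblast markers summed to 938 and 1060 FPKM against 312 and 353 FPKM, with 4 of 4 tested higher and Gcm1 listed at 0 in every library. Of the macrophage markers Itgam passed the filter only through its Ncr1Cre values, with a control mean of 0.787 FPKM. Over all genes tested 30.9% were called higher in Ncr1Cre. The part of epithelial, macrophage or trophoblast cells in the Jag1 difference was not tested.

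Dll4, the ligand of endothelial tip cells, had 1.57 and 1.22 FPKM in the Ncr1Cre libraries, against 0.924 and 0.563 FPKM in the control libraries. The genotypes did not overlap, but the log2 fold change of 0.46 (SE 0.16, 95% interval 0.06 to 0.86) did not pass (limma adjusted p = 0.063). Dll4 passed the filter through its Ncr1Cre values, since its control mean was 0.743 FPKM, and the noncoding gene Gm14207 overlaps it on the opposite strand, whose reads cannot be told from those of Dll4 unless strand was used. Dll1, a Delta-type ligand, was below the filter with 0.576 and 0.410 FPKM in the Ncr1Cre libraries, against 0.780 and 0.748 FPKM in the control libraries. The genotypes did not overlap, and no test was made. At the estimated depth these values stood for about 54 and 33 fragments in Ncr1Cre and 108 and 56 in control, and the noncoding gene A930024N18Rik overlaps Dll1 on the opposite strand. Jag2, the second Jagged ligand, was below the filter too, with 1.09 and 0.745 FPKM in the Ncr1Cre libraries and 0.762 and 1.16 FPKM in the control libraries, and its genotypes overlapped. The 4 ligands summed to 20.6 and 18.3 FPKM in Ncr1Cre and to 7.04 and 6.88 FPKM in control.

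Among the receptors, Notch2 and Notch4 fell and Notch3 rose in the Ncr1Cre libraries, and Notch1 did not pass. Notch2, the most abundant receptor in every library, had 6.90 and 5.65 FPKM in the Ncr1Cre libraries, against 10.5 and 11.2 FPKM in the control libraries. Both Ncr1Cre libraries lay below both control libraries. Its level was 1.73-fold lower, with a log2 fold change of -0.71 (SE 0.12, 95% interval -1.01 to -0.41, limma adjusted p = 0.007). The annotated genes Gm42819 and Gm42820 overlap Notch2 on the same strand, so strand use would not separate their reads. Without the filter on low genes the adjusted p was 0.0592, and Notch2 passed in the other 10 alternatives.

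Notch4, a receptor known mainly from endothelium, had 1.15 and 0.662 FPKM in the Ncr1Cre libraries, against 2.69 and 2.37 FPKM in the control libraries. The highest Ncr1Cre value was below the lowest control value. Its level was 2.79-fold lower, with a log2 fold change of -0.90 (SE 0.16, 95% interval -1.31 to -0.48, limma adjusted p = 0.00906), and the adjusted p was 0.0794 without the filter. Notch4 passed the filter only through its control values, since its Ncr1Cre mean was 0.907 FPKM. In control Notch4 stood above Notch1, at 2.53 ± 0.22 and 2.04 ± 0.38 FPKM, whereas in Ncr1Cre it was the lowest of the receptors. The pseudogene Gm20462 overlaps Notch4 on the opposite strand.

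Notch3, the receptor of vascular smooth muscle and pericytes, had 1.69 and 1.24 FPKM in the Ncr1Cre libraries, against 0.699 and 0.547 FPKM in the control libraries, without overlap. The means differed 2.35-fold and the log2 fold change was 0.60 (SE 0.14, 95% interval 0.23 to 0.96, limma adjusted p = 0.0219). This call was not stable: the adjusted p was 0.0914 after quantile normalization, 0.0942 without the filter, 0.0676 without replicate 1 of Ncr1Cre, 0.0566 without replicate 1 of control and 0.0922 without replicate 2 of control. Notch3 passed the filter through its Ncr1Cre values, and the antisense gene Gm17276 overlaps it. Smooth-muscle markers went the other way, with 7 of 7 tested lower and sums of 218 and 212 FPKM in Ncr1Cre against 598 and 587 FPKM in control. Of 5 tested pericyte markers 3 fell, among them Pdgfrb, which encodes the PDGF receptor beta of mural and stromal cells, and the list summed to 26.2 and 23.4 FPKM against 47.1 and 43.0 FPKM. Over all genes tested 17.6% were called lower in Ncr1Cre. The part of mural cells in the Notch3 difference was not tested.

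Notch1, the receptor best known from lymphocyte development, had 2.78 and 2.47 FPKM in the Ncr1Cre libraries, against 2.32 and 1.77 FPKM in the control libraries. The genotypes did not overlap, but the log2 fold change of 0.26 (SE 0.13, 95% interval -0.09 to 0.60) did not pass (limma adjusted p = 0.173). In all 10 alternatives in which it was tested it did not pass either, with an adjusted p of 0.123 to 0.659. The noncoding genes 0610009E02Rik and Gm13568 overlap Notch1 on the opposite strand.

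**Figure D2:**
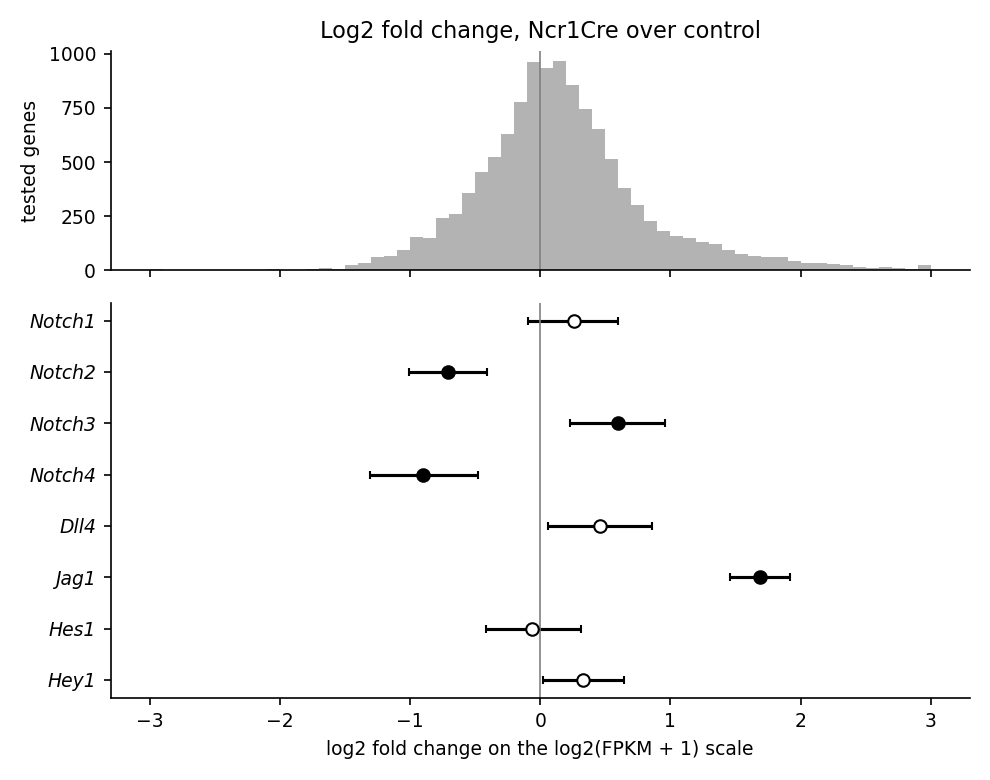
Log2 fold changes, Ncr1Cre over control, on the log2(FPKM + 1) scale. The upper panel counts all 11762 genes tested in bins, with values beyond 3 drawn in the end bins, and the lower panel gives the 8 tested members with 95% intervals, filled where the adjusted p was under 0.05. Jag1 at 1.69 lies far to the right, Notch2 at -0.71 and Notch4 at -0.90 lie to the left, and the intervals of Notch1 and Hes1 include 0.

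The makeup of the receptor pool differed between the genotypes. Notch2 held 55.1% and 56.4% of the summed FPKM of the 4 receptors in the Ncr1Cre libraries, against 64.7% and 70.6% in the control libraries. Notch1 held 22.2% and 24.7% in Ncr1Cre, against 14.3% and 11.1% in control. Notch3 held 13.5% and 12.3% in Ncr1Cre, against 4.32% and 3.44% in control. Notch4 held 9.20% and 6.61% in Ncr1Cre, against 16.6% and 14.9% in control. No share overlapped between the genotypes, and Notch2 was the largest share in each library. The levels of 76.2% of all genes tested did not overlap either. The 4 shares of a library add up to the whole, so they are not independent, and Notch1 itself did not pass. The pool itself summed to 12.5 and 10 FPKM in Ncr1Cre and to 16.2 and 15.9 FPKM in control. In the ligand pool Jag1 held 84.3% and 87.1% in Ncr1Cre, against 65.0% and 64.1% in control, and Dll1 held 2.79% and 2.24% in Ncr1Cre, against 11.1% and 10.9% in control. These shares are descriptions, since with 2 libraries on each side the smallest two-sided p of an exact permutation test is 0.333.

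**Figure D3:**
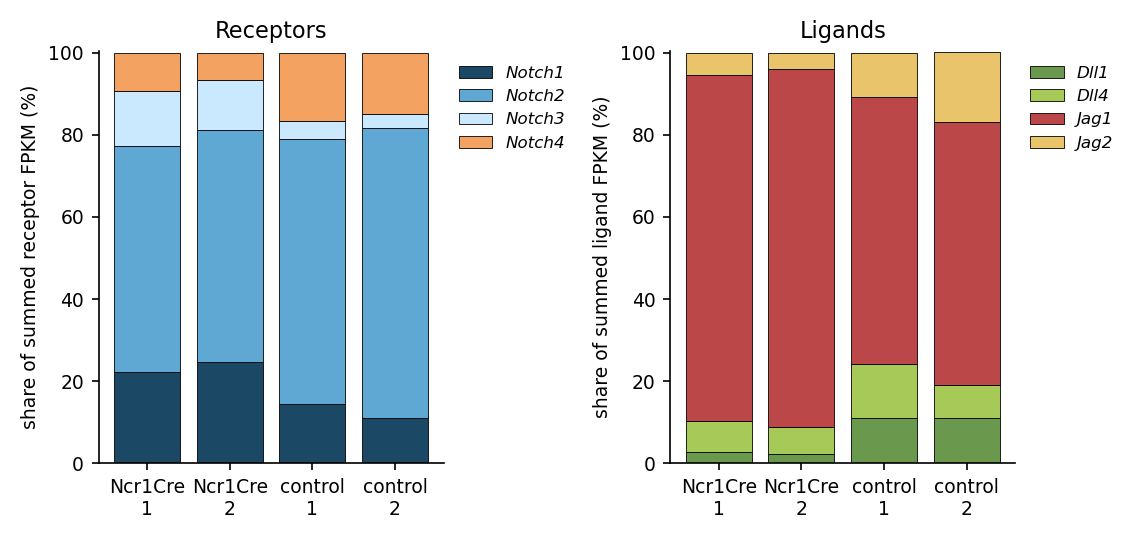
Share in percent of each receptor in the summed FPKM of Notch1 to Notch4 (left) and of each ligand in the summed FPKM of Dll1, Dll4, Jag1 and Jag2 (right), 1 bar per library. The Notch3 band is wider in the Ncr1Cre libraries, at 13.5% and 12.3%, than in the control libraries, at 4.32% and 3.44%, and Jag1 fills 84.3% and 87.1% of the ligand bars in Ncr1Cre.

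Endothelial markers did not move in 1 direction, where over all genes tested 30.9% were called higher and 17.6% lower in Ncr1Cre. Of 10 such genes, 8 were tested, of which Cdh5, Tie1 and Cldn5 rose and Tek, Esam and Eng fell, and the list summed to 47.9 and 50.2 FPKM in the Ncr1Cre libraries and to 41.5 and 39.8 FPKM in the control libraries. The count that fell was 0 without replicate 1 of Ncr1Cre or of control and 1 without replicate 2 of either. Cdh5, which encodes VE-cadherin of endothelial junctions, had 13.4 and 13.8 FPKM in Ncr1Cre, against 3.09 and 3.27 FPKM in control. The higher sum of the list in Ncr1Cre rested on this gene. The ratio of Notch4 to Cdh5 within a library was 0.086 and 0.0479 in Ncr1Cre, against 0.868 and 0.726 in control. That of Dll4 to Cdh5 was 0.117 and 0.0883 in Ncr1Cre, against 0.299 and 0.172 in control. Cdh5 rose most of the 8 tested endothelial markers, however, while Tek had 2.73 and 2.96 FPKM in Ncr1Cre, against 4.62 and 3.86 FPKM in control. Since Dll4 was higher and Tek lower in Ncr1Cre, the direction of the Dll4 ratio depends on the marker chosen. Notch4 was lower like Tek, so the size of the difference in the Notch4 ratio depends on the marker too. No fall of Dll4, and no size of a fall of Notch4, relative to endothelial cells is read from these ratios. Of 5 arterial markers 2 were tested, and Efnb2, the ephrin ligand of arteries, fell to 12.7 and 10.9 FPKM in Ncr1Cre, against 20.1 FPKM in both control libraries. Sox17, a transcription factor listed here as an arterial marker, rose to 6.56 and 4.57 FPKM, against 0.838 and 2.24 FPKM. The untested Gja4 and Gja5 averaged 0.573 and 0.236 FPKM in Ncr1Cre, against 0.654 and 0.477 FPKM in control, and Bmx was near 0. The part of arterial or other cells in the Sox17 difference was not tested.

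Promoter windows of the called members are shown because these genes changed in opposite directions and their upstream sequences differ in the GC boxes they hold. RefSeq windows of 300 bases on the build GRCm38.p6, which is newer than that of the files, were available for 8 of the 10 members and not for Hes1 and Hey1. The stretches printed run up to the first base before any annotated start of the gene, 5′ to 3′ on the gene's strand, at chr2:137116645-137116770 (minus) for Jag1, chr3:98013288-98013526 (plus) for Notch2, chr17:32166897-32167140 (minus) for Notch3 and chr17:34564045-34564267 (plus) for Notch4. Capitals mark GC boxes, searched as GGGCGG on both strands.
Jag1: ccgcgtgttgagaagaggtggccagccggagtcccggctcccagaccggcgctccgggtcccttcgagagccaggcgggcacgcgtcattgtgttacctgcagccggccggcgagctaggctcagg
Notch2: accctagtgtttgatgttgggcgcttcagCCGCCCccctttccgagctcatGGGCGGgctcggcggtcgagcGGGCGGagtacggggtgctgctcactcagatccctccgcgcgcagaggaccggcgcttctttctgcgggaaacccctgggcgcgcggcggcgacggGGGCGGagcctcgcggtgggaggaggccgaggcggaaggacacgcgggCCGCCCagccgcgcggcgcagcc
Notch3: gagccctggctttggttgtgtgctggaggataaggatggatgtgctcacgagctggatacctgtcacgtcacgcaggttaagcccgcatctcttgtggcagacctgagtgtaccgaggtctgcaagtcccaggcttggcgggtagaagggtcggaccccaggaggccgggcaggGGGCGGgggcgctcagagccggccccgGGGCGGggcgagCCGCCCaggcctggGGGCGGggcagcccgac
Notch4: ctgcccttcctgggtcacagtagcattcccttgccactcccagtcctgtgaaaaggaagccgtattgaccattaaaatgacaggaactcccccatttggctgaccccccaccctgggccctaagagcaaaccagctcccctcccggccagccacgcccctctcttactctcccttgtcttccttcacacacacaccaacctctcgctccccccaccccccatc
The printed stretch of Notch2 held 5 GC boxes and that of Notch3 held 4, while those of Jag1 and Notch4 held 0. GC boxes were thus present in 1 of the 2 genes that rose and in 1 of the 2 that fell. The printed stretches are shorter than full windows, so these counts are not compared with the reference. The members' full windows held a GC box for Notch1, Notch2, Notch3, Dll4 and Jag2 and none for Notch4, Dll1 and Jag1. Among full windows of 300 bases, 35.7% of 32851 in the reference held a GC box. The core of the RBPJ motif, TGGGAA on both strands, does not overlap the GC box, and it stood in 25.6% of those windows and in 0 of the 9 windows of the 8 members, of which Dll1 had 2.

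The targets Hes1 and Hey1 did not pass. Hes1, a repressor with a basic helix-loop-helix domain that is switched on by Notch in many tissues and by other signals too, had 105 and 78.9 FPKM in the Ncr1Cre libraries, against 92.2 and 97.0 FPKM in the control libraries. The control values lay between those of the Ncr1Cre libraries. Its log2 fold change was -0.06 (SE 0.14, 95% interval -0.42 to 0.31, limma adjusted p = 0.767), and it was 0.15 without replicate 2 of Ncr1Cre, so no direction can be given. Hes1 stood at the 96.6 to 97.5 percentile of all genes by level in every library. Hey1, a repressor of endothelium and heart, had 1.6 and 1.31 FPKM in the Ncr1Cre libraries, against 1.01 and 0.896 FPKM in the control libraries. The genotypes did not overlap, and the log2 fold change of 0.33 (SE 0.12, 95% interval 0.02 to 0.64) did not pass (limma adjusted p = 0.0757), and it passed the filter through its Ncr1Cre values. The level of Hes1 was 65.6 and 60.1 times that of Hey1 in Ncr1Cre, against 91.7 and 108 times in control.

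Replicate 1 of Ncr1Cre was above replicate 2 in all 10 members, and replicate 1 of control was above replicate 2 in 7 of 10. Over all genes tested the shares were 55.1% and 54.2%.

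Of 49 other genes of the pathway, grouped by role, 39 were tested, and 8 rose and 10 fell, 18 in all, a share close to the 48.5% called over all genes tested. The median log2 fold change was -0.04, against 0.11 over all genes tested. The split depended on scaling, with 4 higher and 15 lower after each of the 3 rescalings. Over all genes tested the split moved toward lower as well. It was 2307 higher and 3287 lower at an equal sum, 2632 and 3069 at equal medians and 2615 and 3032 with quantile normalization.

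Of 10 genes of the nuclear complex, all tested, 0 rose and 3 fell, where 30.9% of all genes tested rose and 17.6% fell, so nothing is read from the count. Rbpj, the DNA-binding partner of the Notch intracellular domain, had 8.49 and 8.89 FPKM in the Ncr1Cre libraries, against 15.1 FPKM in both control libraries (log2 fold change -0.73, SE 0.08, limma adjusted p = 0.00188), and it passed in all 11 alternatives. The others were the Mastermind coactivators Maml1 and Maml2, named after their values were seen. Maml1 had 6.30 and 5.67 FPKM in Ncr1Cre, against 10.3 and 10.2 FPKM in control (log2 fold change -0.69, limma adjusted p = 0.00368), and Maml2 had 3.53 and 4.02 FPKM, against 7.16 and 5.56 FPKM (log2 fold change -0.62, limma adjusted p = 0.0193, and 0.0756 without replicate 1 of control). Snw1 and Kat2b, a splicing-linked cofactor and an acetyltransferase, had 11.8 and 12.8 FPKM against 9.94 and 11.4 FPKM, and 8.34 and 8.02 FPKM against 8.48 and 8.45 FPKM, and neither passed.

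Of 10 proteases and subunits that process the receptor, all tested, 3 rose and 0 fell, against 30.9% higher and 17.6% lower over all genes tested. After each rescaling 1 rose and 2 fell, and the split over all genes tested moved toward lower as well. Psenen, a small subunit of gamma-secretase, had 84.9 and 92.1 FPKM in the Ncr1Cre libraries, against 48.4 and 53.5 FPKM in the control libraries (log2 fold change 0.79, SE 0.08, limma adjusted p = 0.00182), and passed in all 11 alternatives. The other subunits named stood close together, with 51.2 and 55.8 FPKM in Ncr1Cre against 47.0 and 49.3 FPKM in control for Ncstn, and 33.8 FPKM in both Ncr1Cre libraries against 32.4 and 31.6 FPKM in control for Aph1a, and neither passed. Furin, the convertase that cleaves Notch on its way to the surface, had 33.0 and 34.0 FPKM against 27.2 and 23.7 FPKM (limma adjusted p = 0.0215, and 0.0655 without replicate 2 of Ncr1Cre, 0.0804 without replicate 2 of control and 0.294 after rescaling to an equal sum). Aph1c, named after its values were seen, passed the filter only through its Ncr1Cre values, with a control mean of 0.886 FPKM. Its call at a limma adjusted p of 0.0445 was lost in 9 of 10 alternatives, among them those without replicate 1 of Ncr1Cre (0.137), without replicate 1 of control (0.175) and without replicate 2 of control (0.0581), and Aph1b and Aph1c are close copies whose separate values are uncertain.

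Of 4 tested glycosyltransferases that add sugars to the EGF repeats of Notch, 1 rose and 3 fell, too few to set against the 30.9% higher and 17.6% lower over all genes tested. Pofut1, which adds the O-linked fucose needed for ligand binding, had 6.91 and 6.85 FPKM in the Ncr1Cre libraries, against 10.5 and 10.3 FPKM in the control libraries (log2 fold change -0.54, SE 0.08, limma adjusted p = 0.00537), and passed in all 11 alternatives. Poglut1, which adds O-linked glucose, had 5.55 and 6.44 FPKM against 8.68 and 9 FPKM (limma adjusted p = 0.0141, but 0.0549 without replicate 1 of control and 0.0671 without replicate 2 of control). The Fringe genes Lfng and Rfng, which extend the fucose, were called in opposite directions, with 2.16 and 2.15 FPKM in Ncr1Cre against 2.88 and 3.09 FPKM in control for Lfng and 15.6 and 16.4 FPKM against 12.7 and 13.3 FPKM for Rfng. Both lost the call in each fit that left out 1 library, with 2 calls in this list without either Ncr1Cre replicate and 1 call without either control replicate, and Rfng also after each rescaling.

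Of 12 tested genes of endocytosis and turnover, 2 rose and 3 fell, close to the 48.5% called in the whole table. Each rescaling gave 2 that rose and 6 that fell, and the split over all genes tested moved toward lower there as well. Without either replicate of control 1 rose and 2 fell. Numb, an endocytic adaptor that antagonises Notch, had 12.8 and 13.1 FPKM in the Ncr1Cre libraries, against 26.8 and 24.7 FPKM in the control libraries (log2 fold change -0.94, SE 0.08, limma adjusted p = 0.000934). Its paralog Numbl had 28.7 and 25.2 FPKM, against 52.9 and 47.3 FPKM (log2 fold change -0.87, SE 0.10, limma adjusted p = 0.00222). Both passed in all 11 alternatives. Dtx3 and Mib2, ubiquitin ligases of which Mib2 acts on ligands, had 47.3 and 36.1 FPKM in Ncr1Cre against 38.3 and 39.9 FPKM in control, and 18.5 and 15.6 FPKM against 18.1 and 15.9 FPKM, and neither passed. The other called genes, named after their values were seen, were Fbxw7, the ubiquitin ligase subunit that degrades the Notch intracellular domain, and Dtx1, a Deltex ligase, which were higher, and Neurl1a, a ligand ubiquitin ligase, which was lower. Fbxw7 had 4.39 and 5.28 FPKM in Ncr1Cre, against 2.89 and 2.42 FPKM in control (limma adjusted p = 0.0115). Dtx1 had 3.26 and 2.88 FPKM in Ncr1Cre, against 1.66 and 1.81 FPKM in control (limma adjusted p = 0.0115). Neurl1a had 1.62 and 1.13 FPKM in Ncr1Cre, against 2.78 and 2.26 FPKM in control (limma adjusted p = 0.0315). These calls were not stable. They were lost in 2 of 10 alternatives for Fbxw7 and for Dtx1 and in 4 of 10 for Neurl1a, among them that without the filter. With 1 library left out at a time, the log2 fold change was 0.56 to 0.78 for Fbxw7, against 0.67 with all libraries. It was 0.5 to 0.64 for Dtx1, against 0.57, and -0.72 to -0.42 for Neurl1a, against -0.57.

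Dlk1, a Delta-like protein without the receptor-binding region of the classical ligands and a gene of fetal and placental tissue, had 3.17 and 2.88 FPKM in the Ncr1Cre libraries, against 0.374 and 0.557 FPKM in the control libraries (log2 fold change 1.46, SE 0.12, limma adjusted p = 0.00087), and was called in all 10 alternatives in which it was tested. It was the 1 tested gene of 4 other ligands, and it passed the filter only through its Ncr1Cre values, with a control mean of 0.466 FPKM. Dlk2 had 0.251 and 0.535 FPKM in Ncr1Cre and 0.237 and 0.210 FPKM in control, and Dll3 and Dner were each listed at 0 in at least 2 libraries and below 0.1 FPKM elsewhere.

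Of 7 further targets of the pathway only 2 were tested, and they moved in opposite directions. Heyl, a HEY-family repressor known from vascular smooth muscle, had 2.29 and 1.90 FPKM in the Ncr1Cre libraries, against 5.07 and 5.24 FPKM in the control libraries (log2 fold change -0.99, SE 0.11, limma adjusted p = 0.00202), and was called in all 10 alternatives in which it was tested. Nrarp, a feedback inhibitor that binds the Notch intracellular domain, had 2.27 and 1.52 FPKM, against 1.09 and 0.786 FPKM (log2 fold change 0.57, SE 0.17, limma adjusted p = 0.0453). It passed the filter only through its Ncr1Cre values, with a control mean of 0.938 FPKM. It lost the call in 7 of 10 alternatives, among them those without replicate 1 of Ncr1Cre (limma adjusted p = 0.128), replicate 1 of control (0.0726) and replicate 2 of control (0.168), and after each rescaling (the highest was 0.137). The untested Hey2 had 0.0967 and 0.173 FPKM in Ncr1Cre and 0.234 and 0.195 FPKM in control, and Hes7 had 0.161 and 0.212 FPKM against 0.129 and 0.156 FPKM.

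**Figure D4:**
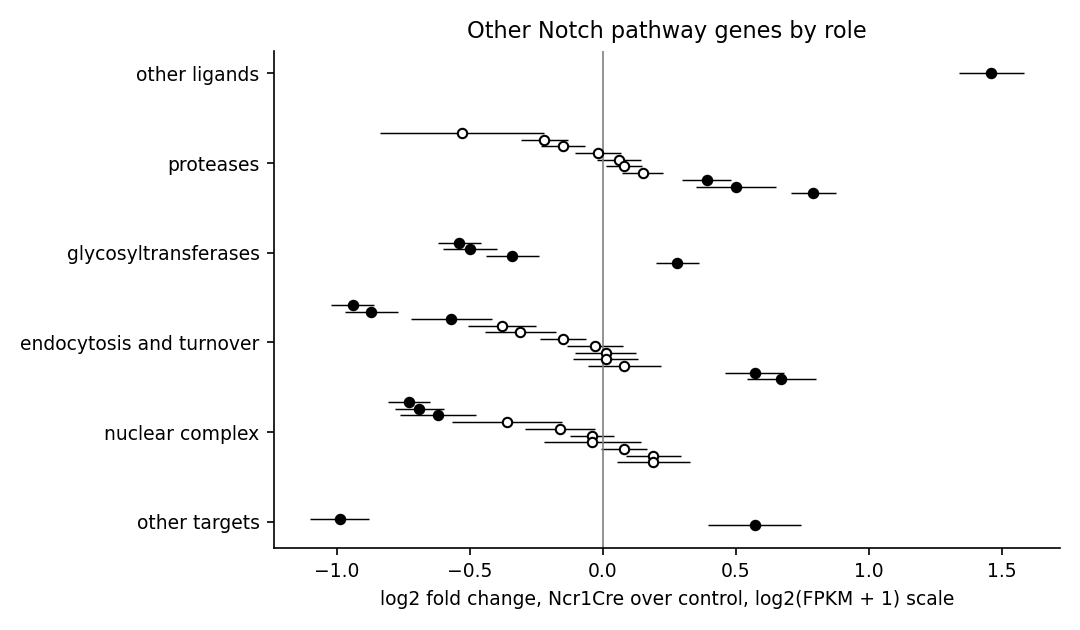
Log2 fold changes, Ncr1Cre over control, on the log2(FPKM + 1) scale, of the 39 tested genes of the wider pathway, grouped by role, with bars of 1 standard error and filled points where the adjusted p was under 0.05. The 3 filled points of the nuclear complex, Rbpj, Maml1 and Maml2, lie at -0.73, -0.69 and -0.62, and Dlk1 lies at 1.46.

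Stromal markers were lower in Ncr1Cre, as were, among other pathway genes, Notch2, Rbpj, Maml1, Numb and Numbl. With 2 genotypes this shared direction is not particular to these genes. Over all genes tested 17.6% were called lower, the called smooth-muscle and pericyte markers among them. All 8 fibroblast markers fell, with Col1a1 at 4510 and 4460 FPKM in Ncr1Cre, against 7920 and 8360 FPKM in control, and Pdgfra, which encodes the PDGF receptor alpha, at 39.0 and 40.4 FPKM against 113 and 114 FPKM. NK-cell markers summed to 32.0 FPKM in both Ncr1Cre libraries and to 22.1 and 22.4 FPKM in the control libraries. Of 5 tested 3 rose and 0 fell, and without replicate 2 of control 1 of them, Prf1, remained called. Over all genes tested 30.9% were called higher and 17.6% lower in Ncr1Cre. Il2rb lost its call after each rescaling, and Gzma was not called, at a log2 fold change of -0.08. T-cell markers summed to less than 1 FPKM in every library, with Cd3e and Cd3d listed at 0 in both control libraries. The part of these cells in the Notch results was not tested.

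**Figure D5:**
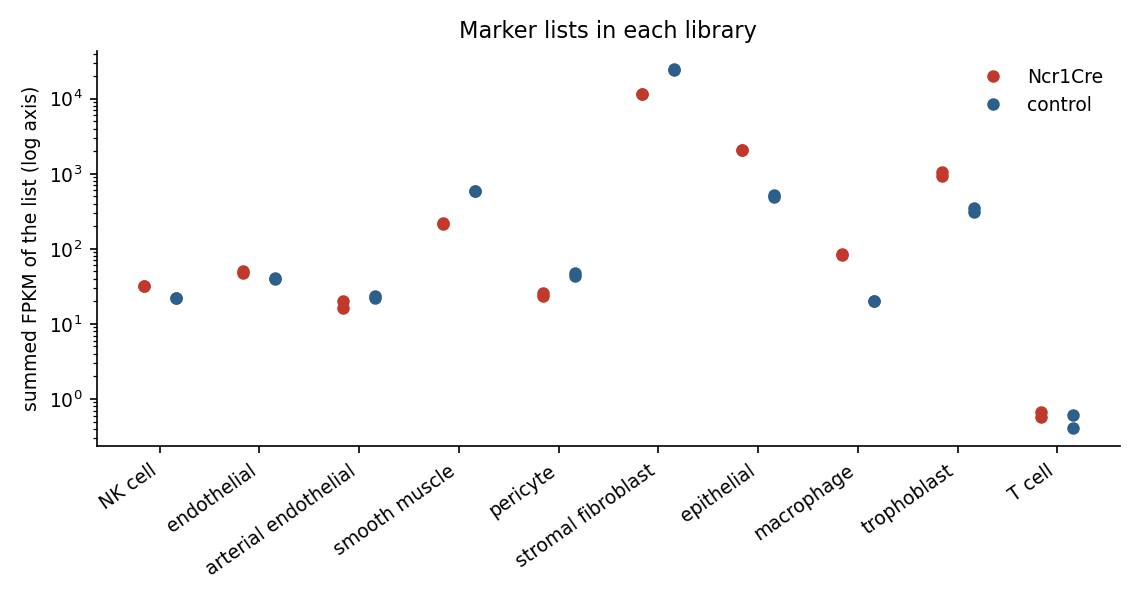
Summed FPKM of each marker list on a log axis, 1 point per library, Ncr1Cre in red and control in blue. Epithelial markers stand at 2050 FPKM in both Ncr1Cre libraries and at 519 and 494 FPKM in control, and smooth-muscle markers at 218 and 212 FPKM in Ncr1Cre and at 598 and 587 FPKM in control.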

How the data were processed

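The deposited values are FPKM per gene, which the authors computed with Cufflinks against mm9, per the submitters' processing notes, in 1 file per library. Not given in the sources used here are its version, the aligner, the annotation, strand use and the treatment of multiply mapped reads. The rest of the genotype, a loxP-flanked allele that both groups carry, and the values of 1 gene that the naming rule takes are not reported here.

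A linear model of log2(FPKM + 1) was fitted in limma (version 3.58.1, R 4.3.3), with an intensity trend, to the 11762 genes that averaged 1 FPKM or more over the 4 libraries. Tests were two-sided, with Benjamini-Hochberg adjustment over these genes and calls under an adjusted p of 0.05. The fit was tested on simulated data with 200 changed genes, raised and lowered in equal number. In the data 5709 genes were called with an uneven split, a setting that the simulation does not cover. FPKM carry no counts, so no count test was run. Library totals are rough estimates from low values of genes with 1 transcript, of which 33.0% to 36.3% came out as whole fragments within 0.02. Replicates differed by more than sampling noise at these totals (median chi-square 2.79 in Ncr1Cre and 2.75 in control, against 0.455), so they were counted separately.

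The members and gene lists were chosen with earlier results of these data known. All members are named, then the 4 most abundant genes of each wider pathway list, the 3 most abundant of each marker list and markers at 0 in every library, as far as the text needs them. Any other gene was named after its values were seen. Adgre1 was matched through its identifier. Promoters are from RefSeq on GRCm38.p6. Calls and fold changes were recomputed with a pseudocount of 0.1, without the filter, with a minimum mean of 5 FPKM, under 3 rescalings, with a replicate block, and without each library in turn. Dll1 and Jag2, which were not tested, have no value under quantile normalization, the replicate block or the minimum of 5 FPKM, and pool shares, list sums and ratios were not recomputed.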

Additional observations from a re-analysis of the deposited data

How the results depend on the processing

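Jag1 passed in all 11 alternatives, Notch2 in 10 of 11 and Notch4 in 9 of 10, and Notch3 in 5 of 10. Of the members 1 was called without the filter and 2 at a mean of at least 5 FPKM, where only 3 were tested, and leaving out 1 library gave 3 to 4. The wider pathway gave 8 calls without the filter, 10 at a mean of at least 5 FPKM, where 25 genes were tested, and 10 to 15 when 1 library was left out, where the single library left in a genotype is taken to vary as much as the other pair. Over all genes 3941 of 21993 were called without the filter and 4037 of 7516 at a mean of at least 5 FPKM, against 5709 of 11762. Calls over all genes were also fewer in each fit that left out 1 library. The lower counts without the filter or without 1 library are thus not particular to the Notch genes. The cause of the lower counts without the filter was not tested. Hes1 turned direction, with log2 fold changes between -0.26 and 0.15 when 1 library was left out, and so did the untested Jag2, whose log2 difference of -0.03 was 0.1 without replicate 2 of Ncr1Cre and 0.12 without replicate 2 of control. No other member turned in the alternatives run. The untested Dll1 had a log2 difference of -0.24, and of -0.56 with a pseudocount of 0.1, -0.52 at an equal sum and -0.41 at equal medians. Genes at least 1 apart on the log2 scale without overlap were 1154 higher and 317 lower, but 1023 and 855 at an equal sum, 892 and 570 at equal medians and 882 and 562 with quantile normalization. The labels do not say that a replicate number marks a shared batch or day, so the numbers were not used to pair libraries. Replicate differences correlated at 0.161 over genes, and the replicate block gave 6004 calls over all genes, 17 in the wider pathway and 5 among the members, where Dll4 passed at a limma adjusted p of 0.0388.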
